A study of Rattus norvegicus with 4 samples.

Results

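The defence genes Mt1, Sqstm1, Nqo1, Gsta2, Aldh1a1 and Mgst1 were followed in rat liver on spotted cDNA arrays, 18 h after a dose of the liver toxicant alpha-naphthylisothiocyanate (ANIT). They were taken as all probes whose platform annotation gave 1 of these symbols, updated through the Entrez gene identifier. This found 6 probes, 1 per gene, of 1936 probes in the table, and 6 of the 958 genes that could be named. Male Sprague-Dawley rats of 250 to 300 g, of unstated age and with no genetic change given, received either ANIT at 75 mg/kg in olive oil (7.5 mg/mL) or the same volume of olive oil into the peritoneal cavity, and all livers were frozen 18 h later. RNA from 3 rats per treatment was pooled, so each treatment was 1 pool, and both pools were compared on 4 arrays. Arrays 1 and 3 had the ANIT pool in Cy5, while arrays 2 and 4 had it in Cy3. All arrays repeat 1 pair of pools, which makes 1 replicate of the treatment and allows no test of it. Every ± is the SD of arrays that share their dye assignment, pooled across Cy5 and Cy3 assignments (n = 4 arrays). It describes hybridisation and not variation between rats.

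ANIT is an isothiocyanate, a reactive electrophile that liver cells couple to glutathione and export into bile, where it injures the bile duct lining. Cells meet such compounds with enzymes that conjugate, reduce or oxidise reactive molecules, many of them under the transcription factor NRF2, which its inhibitor KEAP1 marks for degradation until electrophiles modify KEAP1. The adaptor p62, the product of Sqstm1, carries ubiquitin-tagged cargo to autophagosomes and also binds KEAP1. Metallothioneins are small cysteine-rich proteins that hold zinc and copper and take up reactive species, and their genes answer to metals through the factor MTF1 and also to glucocorticoids and inflammatory cytokines.

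The values are log ratios, taken as log2 with ANIT over olive oil. That direction is only likely: the titles carry the name ANIT, which is channel 2 throughout whatever its dye, and the table states neither direction nor log base. Arrays of one orientation correlated at 0.958 to 0.979 over all probes, and arrays of opposite orientation at -0.383 to -0.370. The alternative reading, a ratio of dyes whose sign turns with the swap, gives Mt1 0.70 and Mgst1 0.79 and puts 0 genes past 2-fold. The deposited array medians were -0.53 for arrays 1 and 3, 0.85 for array 2 and 0.83 for array 4. Each array was therefore centred on its median, and a gene's ratio is the mean of both dye orientations. Centring lowered every mean ratio by 0.15 (the shift back is 0.15), and centring on the housekeeping genes Hprt1 and Actb instead moves it by a further -0.063. A centred ratio between -0.15 and 0.063 thus changes sign under one of these scalings. The table gives ratios and no levels, so the tissue could not be checked against its defining markers and no gene's abundance is known.

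Of the 6 genes, Mt1 and Sqstm1 were higher after ANIT by 2-fold or more and kept one sign over the 4 centred arrays. Across all named genes, 1.25% met that rule (12 of 958 genes) and 1.15% were lower by it. At 1.5-fold, a log2 size of 0.58, Aldh1a1, Gsta2 and Nqo1 were also counted as higher, which makes 5 of 6 against 3.55% of all genes, and 0 of 6 were counted as lower against 2.19%. Mgst1 was 1.56-fold lower by its mean but did not keep one sign on the centred arrays. With no need of one sign, it joins the 2.71% of genes that were lower by 1.5-fold, against 4.07% that were higher. The split of all genes moved with the scaling. At 1.5-fold 34 were higher and 21 lower after median centring, 50 (5.22%) and 15 (1.57%) without centring, and 31 and 32 when centred on Hprt1 and Actb. At 2-fold the counts were 12 and 11, 17 and 7, and 10 and 11. Of the 6 genes, 4 were counted as higher at 1.5-fold without centring. Because the genes were chosen with earlier results of these data known, their share is a description of these pools and nothing is read from it. In bulk RNA, fewer cells of a type and less RNA per cell cannot be told apart.

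**Figure D1:**
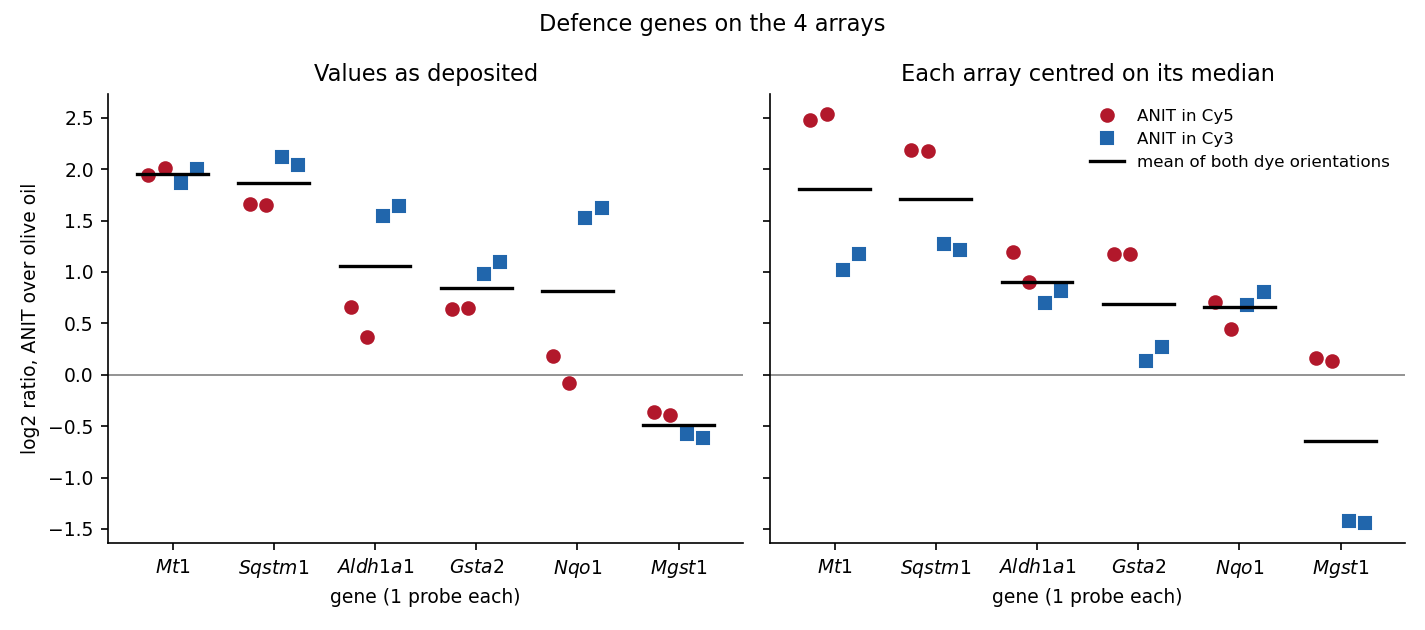
Log2 ratio of ANIT over olive oil (vertical axis) for the 6 genes on each of the 4 arrays, as deposited on the left and centred on the array median on the right; circles are arrays with ANIT in Cy5, squares arrays with ANIT in Cy3, and bars the mean of both orientations. As deposited, Mt1 lies between 1.87 and 2.01 on all arrays and Mgst1 between -0.61 and -0.37, while Nqo1 lies near 0 with ANIT in Cy5 and above 1.5 with ANIT in Cy3.

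Mt1, a metallothionein, had deposited log2 ratios of 1.94, 1.87, 2.01 and 2.002 on arrays 1 to 4. All 4 arrays lay close together whichever dye ANIT carried, and the difference between dye orientations, ANIT in Cy5 less ANIT in Cy3, was 0.041, against a median of -1.25 over all probes. After centring the arrays gave 2.48, 1.02, 2.54 and 1.18, with the arrays of each orientation side by side and both orientations above 2-fold. The mean was 1.80 ± 0.083, or 3.49-fold higher in the ANIT pool, which placed Mt1 at rank 2 of 958 genes. If the deposited logs were natural, this would be 6.07-fold.

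The metallothionein genes Mt3 and Mt4 also had a probe. Mt3, best known as the form of the nervous system, had centred ratios of 0.20, 0.65, 0.12 and 0.65 and a mean of 0.40 ± 0.040, above 0 on all arrays but under 1.5-fold. Mt4, a form of stratified epithelia, had -0.062 ± 0.095, with a sign that turns to 0.091 on the deposited scale. Their dye differences were -1.86 and -1.78, against 0.041 for Mt1. Whether the Mt1 probe tells Mt1 from other metallothionein transcripts was not tested.

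The stretch upstream of Mt1 is shown because the data turn on this gene and because its control by metals is textbook knowledge. Sequences are the RefSeq bases before the annotated gene start on rat assembly GRCr8, all 6 genes having an entry, and those of Sqstm1 and Gsta2 are set beside it for comparison. Mt1 lies at chr19:10832976-10833225, Sqstm1 at chr10:35037751-35038000 and Gsta2 at chr8:88077093-88077342, each on the minus strand and 250 bases long. Capitals mark matches on either strand to the metal response element core (TGCACNC or TGCGCNC), the antioxidant response element core (TGACNNNGC), the xenobiotic response element core (GCGTG) and a STAT site (TTCNNNGAA).
Mt1: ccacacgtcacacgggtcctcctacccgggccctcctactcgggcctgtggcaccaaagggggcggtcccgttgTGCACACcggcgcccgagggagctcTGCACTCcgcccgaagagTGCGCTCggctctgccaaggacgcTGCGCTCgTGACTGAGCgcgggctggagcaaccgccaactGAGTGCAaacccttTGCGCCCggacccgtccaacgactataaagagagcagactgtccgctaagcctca
Sqstm1: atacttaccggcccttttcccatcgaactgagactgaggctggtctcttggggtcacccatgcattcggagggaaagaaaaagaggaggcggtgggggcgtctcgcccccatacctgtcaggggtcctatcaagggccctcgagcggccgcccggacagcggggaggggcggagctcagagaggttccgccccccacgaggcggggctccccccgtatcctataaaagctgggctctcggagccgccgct
Gsta2: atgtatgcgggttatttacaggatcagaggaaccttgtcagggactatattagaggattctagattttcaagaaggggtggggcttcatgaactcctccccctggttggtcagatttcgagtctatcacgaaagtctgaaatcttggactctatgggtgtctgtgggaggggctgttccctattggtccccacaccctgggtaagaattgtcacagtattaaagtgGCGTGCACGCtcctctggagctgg

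Motifs were searched in 300 bases, from 250 before the start to 50 after it. Mt1 held 6 matches to the metal response element core, 3 of each form, between positions -176 and -49 from the gene start. Of 33469 rat promoter windows of this length, 24.2% held at least 1 such match (12.2% the first form and 14.1% the second), and 13 windows, 0.0388%, held as many as 6. Mt1 also held 1 antioxidant core match at positions -101 to -93, as 12.1% of all windows did. Sqstm1 and Aldh1a1 held no match to any of these letters. In Gsta2 the bases -24 to -15 read the same on both strands and gave 2 metal core matches and 2 xenobiotic core matches that overlap one another, and an antioxidant core match lay after the start, at 37 to 45. Nqo1 held 1 xenobiotic core match, a motif found in 29.7% of windows, and Mgst1 held 1 metal core match after its start. The STAT letters, present in 8.87% of windows, were in none of the 6. A match is a description of letters, and sites outside these windows were not searched.

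Sqstm1, which encodes p62, had deposited log2 ratios of 1.66, 2.11, 1.65 and 2.04. Both arrays with ANIT in Cy3 were higher than both with ANIT in Cy5, by a dye difference of -0.43, and all 4 were far above 0. Centred values were 2.19, 1.27, 2.18 and 1.22, with a mean of 1.71 ± 0.026, or 3.28-fold higher, at rank 3 of 958. The means of Mt1 and Sqstm1 lay 0.089 apart, against a combined SD of 0.087, and Mt1 was the higher of the pair on 2 of 4 arrays, so their order is not settled. Sqstm1 stood 0.81 above the next of the 6, Aldh1a1, on all 4 arrays and by more than 2 combined SDs, of 0.16 each. That SD leaves out the dye, as the gap was 0.99, 0.57, 1.28 and 0.41 on arrays 1 to 4.

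Aldh1a1, a cytosolic aldehyde dehydrogenase that oxidises retinal and reactive aldehydes, had deposited log2 ratios of 0.66, 1.54, 0.37 and 1.64. It was above 0 on every array but lower with ANIT in Cy5, by a dye difference of -1.08. Centring brought the arrays together at 1.19, 0.70, 0.90 and 0.81. The mean was 0.90 ± 0.16, or 1.87-fold higher, at rank 15. On the deposited scale it was 1.05, which passes 2-fold, so that the 2-fold call of this gene rests on the scaling.

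Gsta2, an alpha class glutathione transferase of liver, had deposited log2 ratios of 0.64, 0.98, 0.65 and 1.10, above 0 on all arrays, with a dye difference of -0.40. Centred, the arrays with ANIT in Cy5 gave 1.17 and 1.18 and those with ANIT in Cy3 0.14 and 0.27, so that both orientations were above 0 but did not overlap. The mean was 0.69 ± 0.069, or 1.61-fold higher, at rank 29. Alpha class transferases resemble each other closely, RefSeq lists Gsta1 as a synonym of this gene, and whether the probe separates them was not tested.

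Nqo1, the quinone reductase that is the usual marker of NRF2 activity, had deposited log2 ratios of 0.18, 1.52, -0.082 and 1.63. Both arrays with ANIT in Cy3 were high and both with ANIT in Cy5 were near 0, a dye difference of -1.53. Relative to the array medians the values were 0.71, 0.68, 0.45 and 0.80, above 0 on all 4 arrays. The mean was 0.66 ± 0.15, or 1.58-fold higher, at rank 31. Array 3 decides its call by the sign rule on the deposited scale, where the mean was 0.81 and arrays 1, 2 and 4 lay above 0 but array 3 below it. Gsta2 and Nqo1 differed by 0.031 against a combined SD of 0.16, and Aldh1a1 and Gsta2 by 0.21 against 0.17 with Aldh1a1 higher on 3 of 4 arrays, so the order within these 3 genes is not settled either.

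Mgst1, a microsomal glutathione transferase that also reduces lipid peroxides, was the 1 gene of the 6 with a mean below 0. Its deposited log2 ratios were -0.37, -0.58, -0.39 and -0.61, all below 0 and close together, with a dye difference of 0.22. After centring, however, arrays 1 and 3 gave 0.17 and 0.14 and arrays 2 and 4 gave -1.42 and -1.44. The mean was -0.64 ± 0.017, or 1.56-fold lower in the ANIT pool, at rank 23 from the lowest. On the deposited scale it was -0.49, under 1.5-fold, so that Mgst1 was counted as lower on neither scale. Centred on Hprt1 and Actb it was -0.70 with one sign on all arrays, and was counted. Nqo1, the next gene above it, stood 1.30 higher, against a combined SD of 0.15 and on all 4 arrays. That SD leaves out the dye, as the gap was 0.55, 2.10, 0.31 and 2.24 on arrays 1 to 4.

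**Figure D2:**
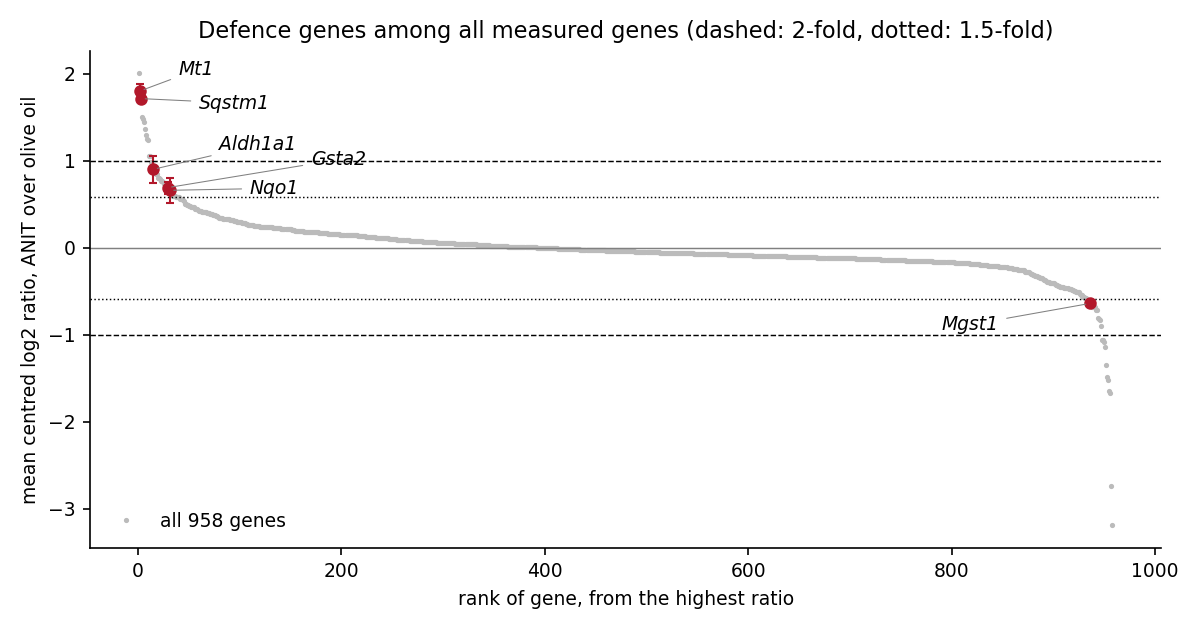
Mean centred log2 ratio of ANIT over olive oil (vertical axis) of the 958 named genes in order of rank (horizontal axis), with the 6 defence genes in red and bars of 1 SD between arrays within dye orientation. Mt1 and Sqstm1 stand at ranks 2 and 3, Aldh1a1, Gsta2 and Nqo1 at ranks 15, 29 and 31, and Mgst1 at rank 23 from the lowest.

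The 6 probes differed in how far the dye moved them, and the width of the ratios in the table changed with that difference. Among the 484 probes with the most negative dye differences, from -3.30 to -2.18, the ratios had an SD of 0.061 around a median of -0.12, 0 were counted at 2-fold, and none of the 6 genes lay there. Nqo1 lay in the next 484 probes (SD 0.21), where it was the 7th highest (rank 7). Sqstm1, Aldh1a1 and Gsta2 lay in the third set (SD 0.45), at ranks 2, 16 and 25 from the highest. Mt1 and Mgst1 lay in the last set (SD 0.46), from -0.27 to 0.36, at rank 4 from the highest and rank 20 from the lowest. In that last set 27 probes were counted at 1.5-fold as higher and 16 as lower. Mt3 and Mt4 lay in the second set, at ranks 18 and 262 from the highest, in which 8 of 484 probes were counted as higher at 1.5-fold and 5 as lower. Spot brightness was not analysed here, and its part in these widths was not tested.

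**Figure D3:**
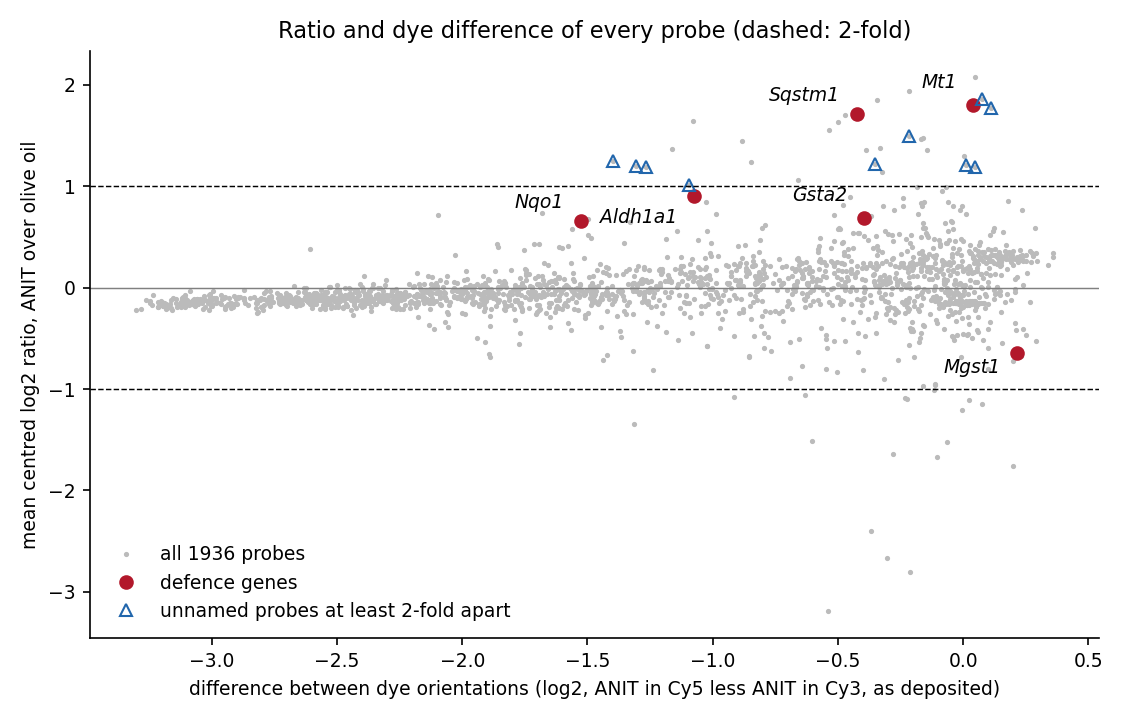
Mean centred log2 ratio (vertical axis) against the deposited difference between dye orientations (horizontal axis, log2, ANIT in Cy5 less ANIT in Cy3) for all 1936 probes, with the 6 defence genes in red and unnamed probes at least 2-fold apart as triangles. Ratios spread little on the left, where the SD is 0.061, and widely on the right, where Mt1 (0.041) and Mgst1 (0.22) lie.

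Genes with the most similar values on the 4 centred arrays were found by the root mean square difference. For Mt1 these were Cyp1a2, a cytochrome P450 under the aryl hydrocarbon receptor (0.22), the acute phase gene Orm1 (0.34) and Nr0b2, the bile acid-responsive repressor SHP (0.50). The same genes were nearest to Sqstm1, with Orm1 at 0.28, Cyp1a2 at 0.34 and Nr0b2 at 0.36. Cyp1a2, Orm1 and Nr0b2 stood at ranks 1, 5 and 7 of 958, near Mt1 and Sqstm1 at ranks 2 and 3. Their nearness thus largely restates the ranking, and shared control was not tested. Gsta2 lay within 0.076 of the cardiac kinase gene Tnni3k, 0.11 of the glycogen synthase gene Gys2 and 0.13 of Ube2b, a ubiquitin-conjugating enzyme gene. Aldh1a1 was nearest to the kinase gene Pim3 (0.14), then Alox15 (0.29) and Por (0.32). Nqo1 was nearest to Magi1 (0.18), Pgs1 (0.19) and Mcrip1 (0.20). Mgst1 was nearest to Cyp4f1, a P450 of fatty acid hydroxylation (0.083), the splicing factor gene Prpf6 (0.084) and the apolipoprotein gene Apoa1 (0.15). These distances compare values on 4 arrays of the same pools, and a gene with several probes enters as their mean. Its single probes can lie far from that mean. The 5 Por probes had mean ratios from 0.055 to 1.85, and the 3 Pgs1 probes from 0.15 to 0.74. Distances to single probes of named genes were not taken.

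Apart from Cyp1a2, the other measured genes of the listed pathways, each as the mean of its probes, lay within 1.5-fold after median centring. Without centring Txn1, Psmd3 and Rxrg were counted as higher too, at 0.65, 0.64 and 0.71. Over all 958 genes the median ratio was -0.040, with 395 above 0. Of all genes 3.55% were counted as higher at 1.5-fold and 2.19% as lower. Without centring these shares were 5.22% and 1.57%. In lists this small a count of 0 lies near such shares, and no lack of response is read from it. Of 39 listed genes of the NRF2-linked response, 9 were measured, with a median of 0.50. The 4 counted as higher at 1.5-fold were Sqstm1, Aldh1a1, Gsta2 and Nqo1, which are among the genes chosen, and of the other 5 measured 0 were counted, against 1 (Txn1) without centring. Among those 5, the thioredoxin gene Txn1 had 0.50 (as deposited 0.55, 0.72, 0.58 and 0.75 by array), the efflux transporter genes Abcc4 and Abcc2 had 0.21 and -0.23, Gclm, the modifier subunit of glutathione synthesis, had 0.17, and malic enzyme, Me1, had -0.25. Nfe2l2 and Keap1 themselves were not among the named probes.

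Mean centred ratios of the glutathione transferase genes lay on both sides of 0, and Gsta2 and Mgst1 lay on opposite sides under each centring. Of 10 measured genes of transferases and glutathione synthesis, Gsta2 alone was counted at 1.5-fold after median centring, with Mgst1 added as lower when centred on Hprt1 and Actb, and the list median was -0.12. Of the mu class, Gstm7 had 0.33 ± 0.13, Gstm5 -0.14 ± 0.26 and Gstm2 -0.24 ± 0.076. Gsto1 had -0.22, Gstt1 -0.19 and Gstp3, of the pi class and outside the list, -0.16. Gstm5 turns to 0.015 on the deposited scale, and the list median turns to 0.035. As deposited, Gstm2 was -0.089, Gsto1 -0.068, Gstt1 -0.035 and Gstp3 -0.012. Of these transferases only Gsta2 and Gstt1 kept one sign over the centred arrays, Gstt1 only as the mean of its 2 probes. Each Gstt1 probe turned sign with the dye, in opposite directions. Probe 1160 had 0.31, -0.80, 0.45 and -0.73 on arrays 1 to 4, and probe 579 had -0.92, 0.43, -0.86 and 0.60. The Gstp3 probe and Gstt1 probe 579 lay in the set of most negative dye differences, where 0 of 484 probes were counted. Of 11 measured genes of peroxide and superoxide defence none was counted after median centring, where 3.55% of all genes were higher and 2.19% lower. Without centring Txn1 was counted. The thioredoxin gene had 0.50, the superoxide dismutase genes Sod2 and Sod3 0.24 and -0.34, and the peroxidase gene Gpx4 0.24. Their median of 0.038 turns to -0.025 when arrays are centred on Hprt1 and Actb, and to -0.030 without array 2, and was 0.011 without array 1 and 0.12 without array 4.

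Among 5 measured aldehyde, alcohol and carbonyl enzymes, Aldh1a1 had 0.90 and the others ran from -0.20 to -0.13. Both Aldh3a2 probes lay in the set of most negative dye differences, where 0 of 484 probes were counted, Akr1a1 lay in the second set, and the probes of Aldh2 and Aldh9a1 in the last. Aldh2, the mitochondrial enzyme of acetaldehyde, had -0.16 ± 0.0096 over 3 probes, Aldh9a1 -0.13, Aldh3a2 -0.13 and the aldehyde reductase gene Akr1a1 -0.20. The small SD of Aldh2 leaves out the dye, as its centred values were 0.56, -0.89, 0.58 and -0.89 on arrays 1 to 4. On the deposited scale its mean was -0.0048. Aldh9a1 and Aldh3a2 did not keep one sign over the centred arrays either. They turn to 0.019 and 0.022 on the deposited scale, and so does the list median, from -0.13 to 0.019. In the retinoid list, 7 measured genes with a median of -0.056 (0.097 as deposited and 0.00079 without array 4), Aldh1a1 was the 1 gene counted after median centring. The retinoid receptor gene Rxrg had 0.56 as the mean of 2 probes and did not keep one sign there. Without centring it kept one and was counted. Its probes differed after median centring: 582 had 0.83 with one sign on all arrays, and 1540 had 0.28 without one sign. Taking the probe of smallest SD, Rxrg was counted as higher. Rarb had -0.16 and the retinol carrier gene Ttr -0.20. Among 4 measured genes of the aryl hydrocarbon receptor battery, to which Nqo1 and Gsta2 also belong, Cyp1a2 had 2.005 ± 0.025 (4.01-fold higher) and Ahr itself 0.010.

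Of 8 measured genes of metal handling, Mt1 alone was counted, where 3.55% of all genes were higher and 2.19% lower. The other 7 had a median of -0.035. The ceruloplasmin gene Cp had 0.38, the iron-regulated aconitase gene Aco1 0.21, the copper importer gene Slc31a1 -0.035, the ferritin chain gene Fth1 -0.22 and the transferrin gene Tf -0.20. Of 10 measured genes of autophagy, ubiquitin and the proteasome, Sqstm1 alone was counted after median centring, and Psmd3 beside it without centring. The other 9 had a median of 0.17 and reached at most 0.48. The proteasome subunit genes Psmd3 and Psmd2 had 0.48 and 0.40, and Becn1, an autophagy initiator, had 0.040. The lysosomal protease gene Ctsl had 0.33, with its 2 probes at 0.59 and 0.061. Among 6 heat shock and chaperone genes none was counted, and their median was 0.14. Cct5 had 0.41, Stip1 0.26 and Cryab -0.12 (0.028 as deposited). Dnaja1 had 0.20, with its 2 probes at 0.52 and -0.11. The list of other conjugating enzymes, which also held epoxide hydrolases, had 1 of 28 genes measured, the epoxide hydrolase gene Ephx2, at 0.20, and thus 0 glucuronosyl, sulfo or acetyl transferases.

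**Figure D4:**
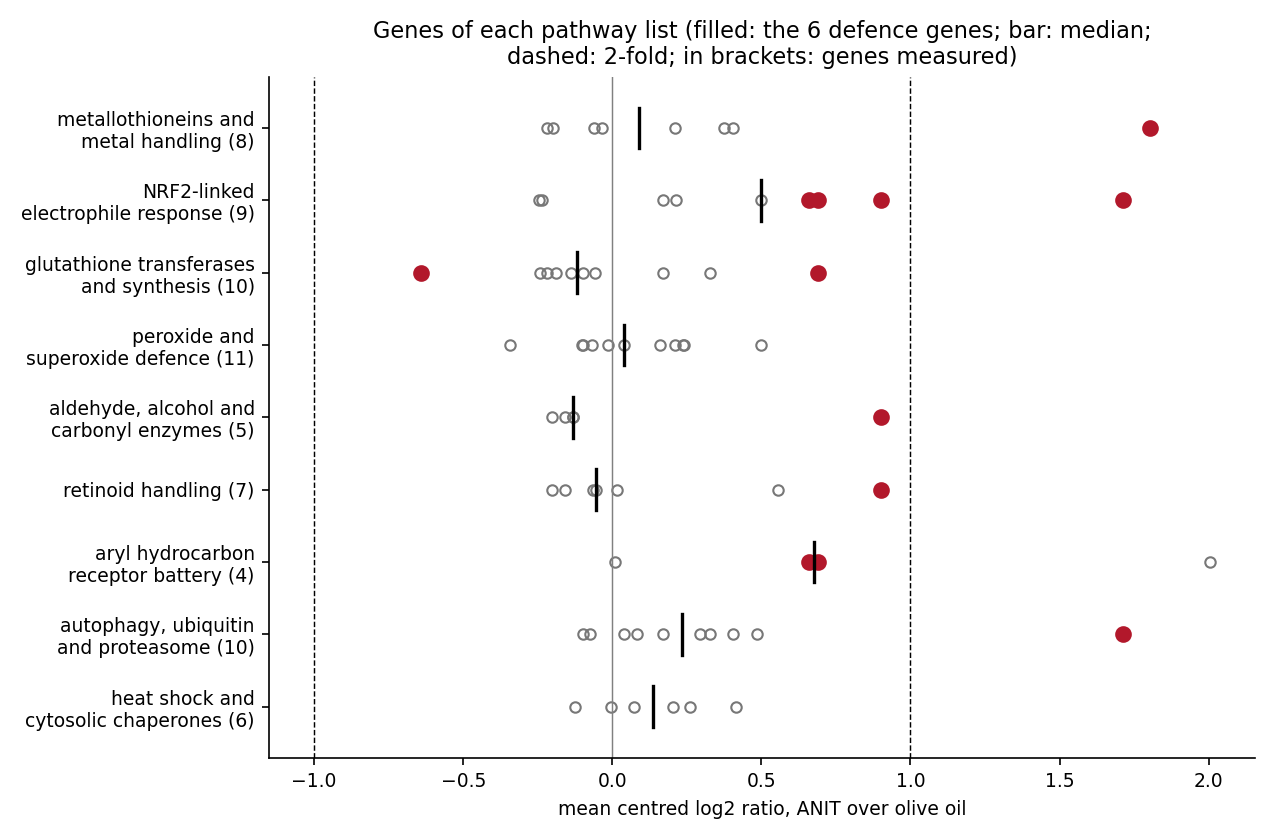
Mean centred log2 ratio of ANIT over olive oil (horizontal axis) of every measured gene in each pathway list with 4 or more measured genes (rows, with the number measured), the 6 defence genes filled in red and the list median as a bar. On this centred scale all other genes of these lists but Cyp1a2, at 2.005, lie within the 1.5-fold band as means of their probes. Without centring Txn1, Psmd3 and Rxrg pass it.

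Markers of other cell types were thinly covered. Of the cholangiocyte list 4 of 14 genes were measured, between -0.18 and 0.34, of neutrophils 1 of 13 (S100a9, 0.038), of endothelial cells 4 of 11, between -0.25 and -0.030, and of stellate cells and fibroblasts 3 of 13, between -0.58 and 0.19. For lymphocytes 2 of 13 were measured (-0.22 and -0.19), and for macrophages 0 of 14. For red cells 2 of 7 were measured, of which Car1 had -1.35 and the other -0.019. Of the hepatocyte list 6 of 14 were measured, with a median of -0.19. The fibrinogen gene Fgg (0.79) was the 1 of these 6 above 0, and Apoa1 (-0.68) the lowest. Their part in the ratios of the 6 genes was not tested.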

How the data were processed

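The deposited table holds 1 log ratio per probe and array, taken here as log2; the authors' background correction, normalization, log base and direction: not given in the sources used here. Per the labels, poly(A) RNA of each pool carried Cy3 or Cy5 on cDNA arrays of 1800 rat genes. Of 1936 probes, with 0 missing values, 1432 had 1 gene symbol, 19 had several and 485 were not listed in the platform annotation. Symbols were renewed by Entrez identifier from RefSeq's GRCr8 genes (1429 matched, 3 kept).

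Arrays were centred on their medians, probes of a gene averaged, and arrays averaged within and then over dye orientations. Genes were counted at 2-fold or 1.5-fold with one sign on all 4 centred arrays. The members and lists were chosen with earlier results of these data known. Named genes were the 6, other measured metallothioneins, glutathione transferases and aldehyde dehydrogenases, the 4 largest ratios of each list with 5 or more measured genes, and the 3 genes nearest to each member. Other list members and cell type markers were named after their values were seen. No test of the treatment was run, as it has 1 replicate. The counting rule was tested on simulated data with smaller dye differences than these arrays and the same SD for every gene. It therefore does not show how the sign rule fares under the full dye differences. Alternatives were other centrings, single dye orientations, the median over arrays, each array left out, the dye ratio reading, natural logs, other probe summaries, 3-fold and other sign rules. Python 3.11.15 with numpy 2.4.6, pandas 2.3.3, scipy 1.17.1 and matplotlib 3.10.9 was used.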

Additional observations from a re-analysis of the deposited data

Results flagged for a closer look

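Some probes that carry no single gene name, and so enter no gene value, lay at least 2-fold above the olive oil pool and were the unnamed probes closest to one of the 6 genes. The probe numbered 1891, which the annotation does not list, differed from Mt1 by 0.056 (root mean square over the 4 centred arrays), had 2.49, 1.00, 2.53 and 1.07 on arrays 1 to 4 and a mean log2 ratio of 1.77. The probe numbered 1757, also not listed, differed from Mt1 by 0.064 and had a mean of 1.86. Both were closer to Mt1 than its nearest named gene, Cyp1a2, at 0.22. Their genes are not known here. The probe numbered 1830, not listed, was the unnamed probe nearest to Sqstm1 (0.25) with a mean of 1.49. The probe numbered 1350, not listed, was the one nearest to Aldh1a1 (0.25) with a mean of 1.02. In all, 10 of 504 unnamed probes were at least 2-fold higher and 0 lower. Over all 1936 probes, the 4 sets of 484 by dye difference held 0, 3, 15 and 12 that were higher at 2-fold. In the same order, the sets held 0, 1, 7 and 10 that were lower.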

How the results depend on the processing

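With each array left out in turn, the mean log2 ratio ran from 1.76 to 1.84 for Mt1, 1.70 to 1.73 for Sqstm1, 0.83 to 0.98 for Aldh1a1, 0.66 to 0.73 for Gsta2, 0.59 to 0.73 for Nqo1 and -0.65 to -0.63 for Mgst1, with 2 of the 6 counted at 2-fold and 5 at 1.5-fold. Without centring, Mt1 had 1.96, Sqstm1 1.87, Gsta2 0.84, Nqo1 0.81 and Mgst1 -0.49, and 7 genes were lower at 2-fold. Centred on Hprt1 and Actb, Sqstm1 had 1.65 and Mgst1 -0.70, and 32 genes were lower at 1.5-fold, Mgst1 included. With ANIT in Cy5 alone, Mt1 had 2.51, Sqstm1 2.18, Gsta2 1.18 and Mgst1 0.15, a reversal, and Nqo1 lost its 1.5-fold call (0.58), with 4 of the 6 counted at 2-fold, 59 genes higher and 7 lower at 2-fold, and 183 and 139 at 1.5-fold. With ANIT in Cy3 alone, Mt1 had 1.10, Sqstm1 1.24, Gsta2 0.21, which lost its 1.5-fold call, and Mgst1 -1.43, which gained one, with 6 genes higher and 36 lower at 2-fold and 129 lower at 1.5-fold. For Mt1 and Mgst1 these shifts follow from the array medians, which differ more by dye than the deposited values of both genes (by 0.041 and 0.22). Nqo1, with a deposited dye difference of -1.53, moved the other way, from 0.58 with ANIT in Cy5 to 0.74 with ANIT in Cy3. Read as a dye ratio, with arrays 2 and 4 turned in sign, the ratios were 0.70 for Mt1, 0.47 for Sqstm1, 0.15 for Aldh1a1, 0.48 for Gsta2, -0.080 for Nqo1 and 0.79 for Mgst1, the last of which and Nqo1 reversed. In that reading 0 genes were higher and 0 lower at 2-fold, with 0 of the 6, and 125 were higher and 67 lower at 1.5-fold, with 1 of the 6. As natural logs, the log2 ratios were 2.60, 2.47, 1.30, 0.996, 0.95 and -0.92 for Mt1, Sqstm1, Aldh1a1, Gsta2, Nqo1 and Mgst1, with 27 genes higher at 2-fold and 36 lower at 1.5-fold. At 3-fold, 3 genes were higher and 4 lower, and Mt1 and Sqstm1 were still among them. The median over arrays, other probe summaries (each of the 6 has 1 probe) kept the direction of all 6. With no sign rule all 6 were counted at 1.5-fold, and with the rule put on deposited signs 5, Nqo1 dropping out and Mgst1 coming in. The sign rule on deposited values, and the 1.5-fold count without a sign rule, were chosen after the data were seen. With 4 arrays of 1 pair of pools, no rat-to-rat error is known.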
